A study of Homo sapiens with 4 samples.

Results

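Chromosome 7 held 498 of the 5326 regions listed in chromatin immunoprecipitation sequencing (ChIP-seq) tables of HCCLM3 cells. The 482 regions described here are those outside the stretch around MET, the hepatocyte growth factor receptor gene, from 115.85 to 116.51 Mb. They make up 9.05% of all regions. They are set by position, and this choice was made with earlier results of these data known. HCCLM3, an established cell line, derives from a human hepatocellular carcinoma. Its chromatin was recovered with an antibody to HNF4A or with nonspecific IgG, which gives the background, in high and in low glucose. The 4 libraries were HNF4A in high glucose, IgG in high glucose, HNF4A in low glucose and IgG in low glucose, 1 library each. The labels describe stable overexpression lines made by lentiviral transduction of HCCLM3 without naming the gene, and they give no glucose concentration. All differences below therefore compare single libraries and have no replicate check.

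HNF4A is a nuclear receptor that binds DNA as a homodimer and maintains the expression program of hepatocytes, including genes of lipid, glucose and drug metabolism. It recognises direct repeats of short hexamers. In ChIP-seq, a region bound by the factor gathers more reads with the specific antibody than with IgG, while a high IgG level shows how many reads a stretch of chromatin gives without specific recovery. The ratio of HNF4A over IgG reads sets both against each other, and a region can hold many HNF4A reads and still have a ratio near 1.

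The regions were assigned by the authors to 360 closest genes, of which 289 had 1 region and 71 had several. Coordinates are hg19, counted from 1, and closeness does not show regulation. The regions ran from 0.556 to 158.50 Mb with lengths of 113 to 6527 bp. Their median length was 1225.5 bp, against 1030 bp over all regions. For 2 of them the tables gave differing gene names.

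Promoters are shown for 3 closest genes named in later results. EPDR1 and URGCP-MRPS24 were taken for a region with a high ratio over IgG, and TFEC for one with a low ratio. Each is the 250 bases before a RefSeq start (GRCh38.p14), written 5′ to 3′ on the gene's strand. Capitals mark HNF4A half-site letters AGGTCA or their reverse TGACCT for EPDR1 and URGCP-MRPS24, and the letters AAAGTCCA, the core of an HNF4A-type element, for TFEC.
EPDR1, chr7:37920390-37920639, plus strand: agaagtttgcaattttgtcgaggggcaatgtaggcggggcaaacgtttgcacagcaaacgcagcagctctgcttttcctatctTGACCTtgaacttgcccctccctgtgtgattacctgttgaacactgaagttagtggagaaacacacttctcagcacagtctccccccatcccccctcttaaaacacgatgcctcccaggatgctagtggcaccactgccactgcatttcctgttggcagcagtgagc
URGCP-MRPS24, chr7:43906597-43906846, minus strand: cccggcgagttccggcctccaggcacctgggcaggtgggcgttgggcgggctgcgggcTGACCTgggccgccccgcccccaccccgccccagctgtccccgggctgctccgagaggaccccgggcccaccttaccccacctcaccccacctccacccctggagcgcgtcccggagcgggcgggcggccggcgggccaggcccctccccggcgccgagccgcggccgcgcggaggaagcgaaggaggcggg
TFEC, chr7:115968310-115968559, minus strand: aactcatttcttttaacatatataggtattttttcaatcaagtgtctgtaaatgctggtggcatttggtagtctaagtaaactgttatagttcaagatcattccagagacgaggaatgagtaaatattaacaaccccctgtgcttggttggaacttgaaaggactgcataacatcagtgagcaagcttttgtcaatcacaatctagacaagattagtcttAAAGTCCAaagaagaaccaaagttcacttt
These windows are in another build than the regions, so no region was placed on them. AHR, the third highest by the ranking of ratios over IgG in high glucose given below, had none of these letters in its promoter window. A second listed start of EPDR1 also had the letters AGGTCA, and the other listed start of TFEC had none of the letters searched. Over the 389 promoters of the 259 closest genes that matched RefSeq, AAAGTCCA or its reverse TGGACTTT was present in 4 (1.03%), against 0.980% of 35116 promoters. AGGTCA or TGACCT was present in 49 (12.6%), against 12.1%. The shorter letters and the longer ones do not overlap each other, and both strands were searched.

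The 4 closest genes with AAAGTCCA were TFEC, CLDN15, STARD3NL and CDHR3. CLDN15, a claudin gene of tight junctions, had a region with 158 HNF4A and 88 IgG reads in high glucose and 93 HNF4A and 47 IgG reads in low glucose. Its log2 ratios were 0.70 (95% interval 0.31 to 1.09) and 0.96 (0.44 to 1.50). STARD3NL had 30 HNF4A and 32 IgG reads in high glucose, a log2 ratio of -0.24 (-1.01 to 0.53), and 37 and 16 reads in low glucose, 1.18 (0.30 to 2.13). CDHR3, a cadherin-related gene, stood at -0.05 (-0.54 to 0.44) and 0.58 (-0.0024 to 1.18). Closest genes with these letters in a promoter window thus had regions on both sides of 0 in high glucose. Whether the regions hold the letters was not tested.

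Of the closest genes, 10 are microRNA (miRNA) genes, with 11 regions. Mature sequences are shown for those whose regions span the range of ratios, with the seed (bases 2 to 8) in capitals, from RefSeq.
hsa-miR-4651: cGGGGUGGgugaggucgggc
hsa-miR-3666: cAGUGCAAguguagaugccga
hsa-miR-183-5p: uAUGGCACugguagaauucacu
hsa-miR-589-5p: uGAGAACCacgucugcucugag
Near MIR4651, 1 of its 2 regions, from 75549539 to 75550591, held 83 HNF4A and 16 IgG reads in high glucose and 39 HNF4A and 19 IgG reads in low glucose. Its log2 ratio over IgG was 2.23 (1.45 to 3.10) in high and 1.01 (0.19 to 1.88) in low glucose. The other MIR4651 region, from 75543956 to 75545505, was at 0.44 (-0.09 to 0.97) and 0.34 (-0.22 to 0.92). MIR3666 was at 0.96 (0.56 to 1.37) and 0.24 (-0.16 to 0.65), and MIR183, from a cluster with roles in sensory organs, at 0.48 (-0.10 to 1.08) and 0.95 (0.24 to 1.69). MIR589 held fewer HNF4A than IgG reads at both glucose levels, 42 against 48 in high and 21 against 25 in low glucose, and both intervals included 0. In all, 8 of the 11 miRNA regions (72.7%) lay above IgG in high glucose and 9 (81.8%) in low glucose, against 84.2% and 91.5% of all regions, so these shares were no higher than the background.

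Along the chromosome, IgG varied more than HNF4A. The regions held 42732 HNF4A and 27184 IgG reads in high glucose and 31189 HNF4A and 21197 IgG reads in low glucose. The median region held 63 HNF4A and 35 IgG reads in high glucose, and 45 HNF4A and 25 IgG reads in low glucose. Reads were scaled to the relative library size and divided by region length, and this scaled number per kb is the level used below. HNF4A had a median of 45.5 per kb in high glucose against 41.3 over the other chromosomes, and IgG had 29.3 against 24.7. At low glucose HNF4A had 35.9 against 32.9, and IgG had 20.7 against 16.7. The excess over other chromosomes was thus larger in the IgG libraries, 1.19-fold and 1.24-fold, than in the HNF4A libraries, 1.10-fold and 1.09-fold. By these medians chromosome 7 ranked 1 and 2 among 21 chromosomes for HNF4A in high and low glucose, and 2 and 2 for IgG. Its median ratio of HNF4A over IgG ranked 18 in high and 21 in low glucose. Chromosomes 8, 12, 19 and 20 stood close to it, with IgG medians of 28.8 to 29.8 per kb in high and 20.04 to 21.9 in low glucose, and median log2 ratios of 0.60 to 0.71 and 0.78 to 0.82, so this combination was shared with other chromosomes. Summed over regions instead, the excess was 1.03-fold and 1.04-fold for HNF4A and 1.08-fold in both IgG libraries. Without the regions closest to ZNF733P and those within 2 Mb of the MET stretch, the summed values fell below 1 in all 4 libraries, between 0.799 and 0.919.

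**Figure D1:**
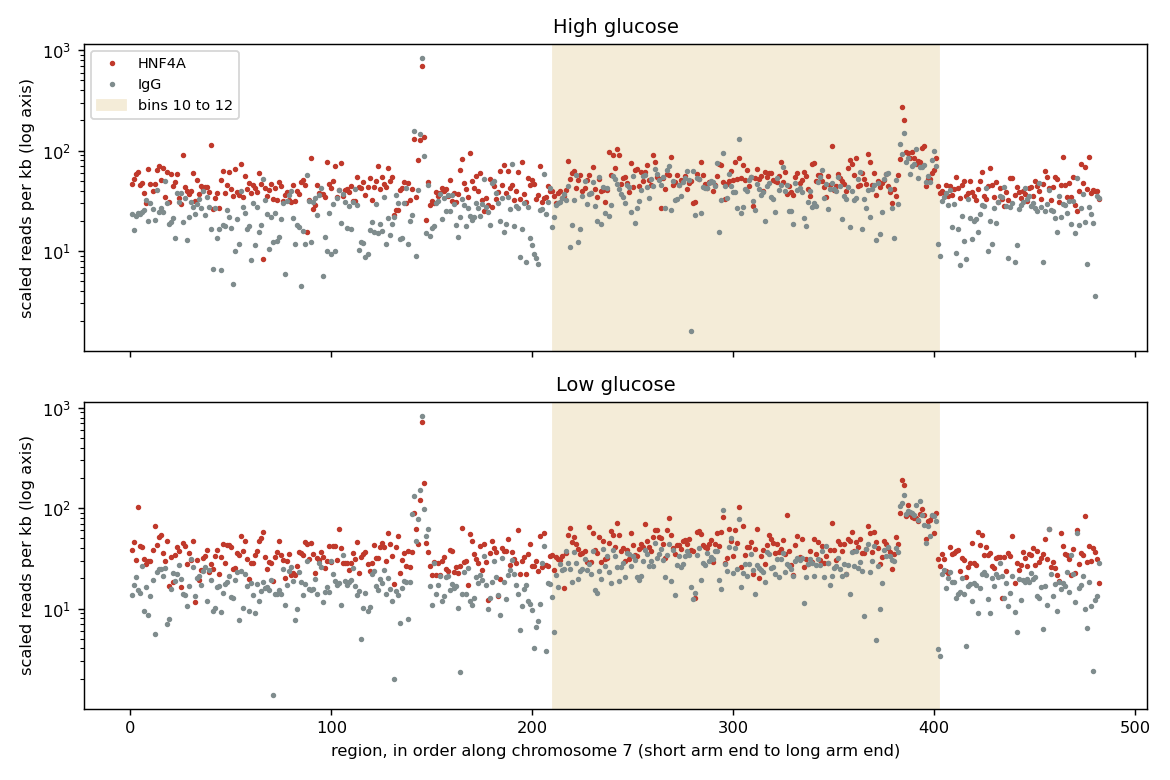
Scaled reads per kb (log axis) of each of the 482 regions in order along chromosome 7, for HNF4A (red) and IgG (grey) in high glucose (upper panel) and low glucose (lower panel), with the regions of bins 10 to 12 shaded. The peak left of the shading is the deepest ZNF733P region, at 701 HNF4A and 839 IgG in high glucose, and the raised points at the right edge of the shading are the regions below the MET stretch.

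In 16 bins of 10 Mb, the median IgG level ran from 17.1 to 58.7 per kb in high glucose, a 3.43-fold range, and the median HNF4A level from 37.9 to 59.1, a 1.56-fold range. At low glucose IgG ran from 11.2 to 67.0, 5.98-fold, and HNF4A from 28.5 to 75.3, 2.64-fold. The highest bin was the one from 110 to 120 Mb in all 4 libraries. Outside bins 10 to 12 (90 to 120 Mb), the bin medians of HNF4A in high glucose lay between 37.9 and 46.9 per kb. The bins are not replicates, and they hold 10 to 89 regions each.

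**Figure D2:**
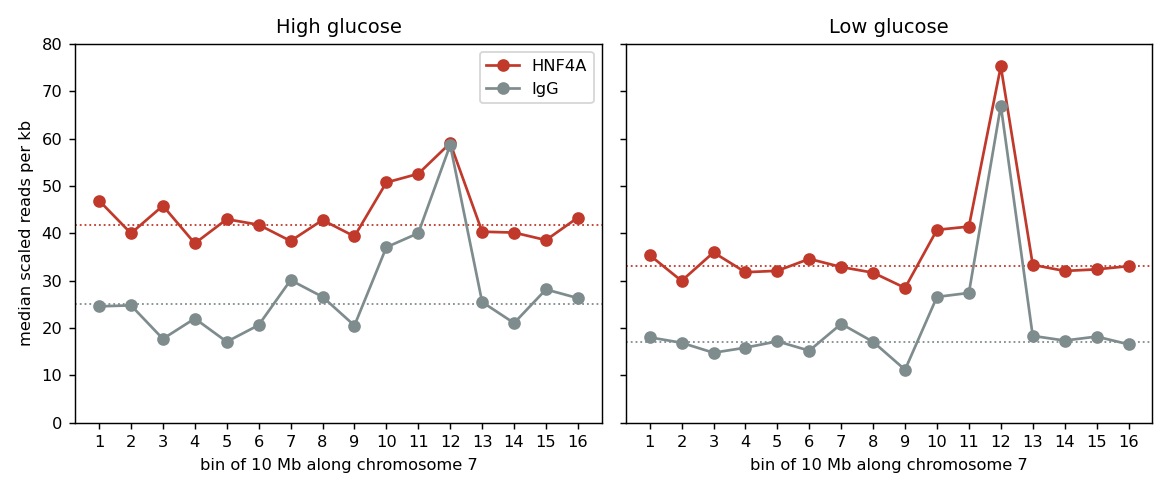
Median scaled reads per kb of the regions in each of 16 bins of 10 Mb, for HNF4A (red) and IgG (grey) in high glucose (left) and low glucose (right); dotted lines are the medians over all 5326 regions. Both HNF4A and IgG are highest in bin 12, at 59.1 and 58.7 in high glucose and 75.3 and 67.0 in low glucose.

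HNF4A exceeded IgG in most regions of the chromosome, by less than over all regions. At high glucose 395 regions (82.0%, against 84.2% of all regions) lay above IgG and 87 below. The median log2 ratio was 0.66 against 0.79 over all regions. At low glucose 434 lay above and 48 below, with a median of 0.73 against 0.94. The sources used here do not give how the authors chose the regions, and a choice by these same reads would build in part of an excess over IgG. A region is counted as 2-fold higher or lower where its log2 ratio is at or past 1 or -1. At high glucose 172 regions (35.7%) were 2-fold above IgG, against a background of 41.6% of all regions, and 5 were 2-fold below, against 1.05%. At low glucose 176 (36.5%) were 2-fold above, against 46.8%, and 1 was 2-fold below, against 0.488%.

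The lower medians went together with the 192 regions from 90 to 120 Mb, 39.8% of those on the chromosome. This interval was delimited after the bin values had been seen. Its regions had a median log2 ratio of 0.38 in high glucose, against 0.90 in the other 290 regions, and 0.54 against 0.97 in low glucose. Their IgG level was 41.7 per kb (quartiles 29.7 to 51.8) in high glucose, against 23.9 (16.6 to 30.8) in the rest. Their HNF4A level was 52.2 (44.3 to 62.8), against 41.7 (35.1 to 49.7). At low glucose the median levels were 43.3 HNF4A and 28.1 IgG in the interval, and 32.6 HNF4A and 16.9 IgG outside it. In the interval 40 regions (20.8%) in high and 35 (18.2%) in low glucose were 2-fold above IgG. Outside it the shares were 45.5% and 48.6%, close to the 41.6% and 46.8% over all regions.

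Region length also moved with this interval. It held 74 of the 89 regions of at least 2 kb, and its median length was 1680.5 bp against 1075 bp in the rest. Among regions under 2 kb, the 118 in the interval had median log2 ratios of 0.52 in high and 0.59 in low glucose, and the 275 in the rest had 0.91 and 0.97. The IgG level of these shorter regions was 36.9 per kb in the interval and 23.7 in the rest in high glucose. Over the chromosome, regions of at least 2 kb had a median log2 ratio of 0.31 in high glucose, against 0.81 in shorter ones. The part of length and of IgG level in the ratio was not tested, and IgG stands in the ratio itself.

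**Figure D3:**
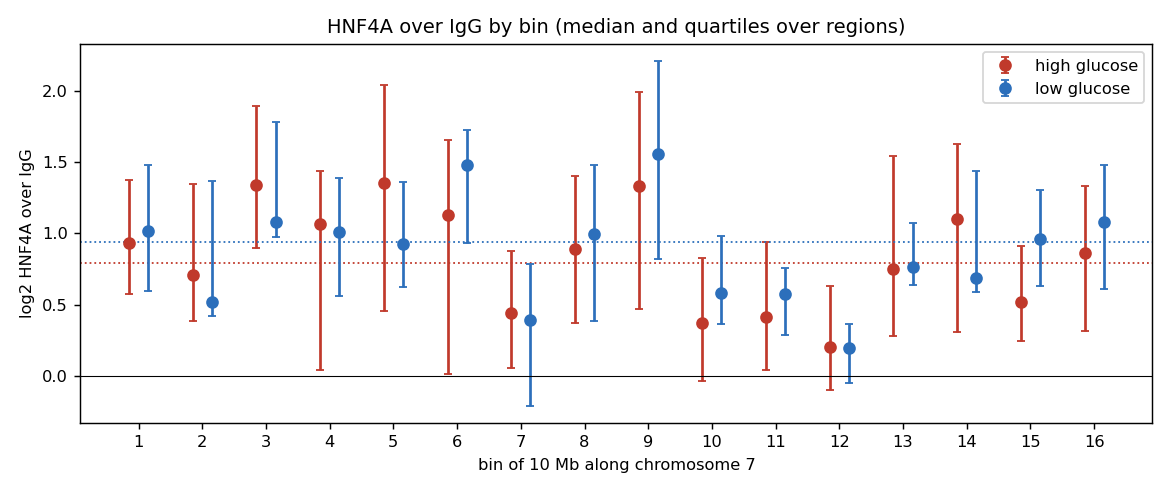
Log2 HNF4A over IgG by bin of 10 Mb, with the median (point) and the quartiles (bars) over the regions of each bin, in high glucose (red) and low glucose (blue); dotted lines are the medians over all regions, 0.79 and 0.94. Bin 12 has medians of 0.20 at both glucose levels, and bin 9 has 1.33 in high and 1.56 in low glucose.

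Regions were also cut into 4 groups by the IgG level of the other glucose library. The median log2 ratio in high glucose was 1.39, 0.88, 0.61 and 0.09 from the lowest to the highest group by IgG in low glucose. The median ratio in low glucose was 1.24, 0.95, 0.64 and 0.44 over the same kind of groups by IgG in high glucose. The highest group held 95 and 99 regions of the interval from 90 to 120 Mb, of 121 each. The IgG levels of the 2 glucose libraries had a Spearman correlation of 0.717 across the 482 regions, so the grouping is not independent of the IgG reads within the ratio. Length moved with the groups as well, with medians of 922, 1213.5, 1470 and 1679 bp over those by IgG in low glucose.

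Levels were also raised just below the MET stretch. The 21 regions within 2 Mb below it, nearest to MDFIC, LINC01393 and TFEC, had medians of 82.3 HNF4A and 71.0 IgG reads per kb in high glucose, and 84.3 HNF4A and 86.0 IgG in low glucose. The MET stretch itself, with 16 regions, had medians of 230.2 HNF4A and 202.3 IgG in high glucose, and 321.7 and 267.9 over its summed length. A run of 5 regions near ZNF733P had 542.4 HNF4A and 644.7 IgG over its summed length in high glucose. Most of this run's reads, 2137 of 2218 HNF4A and 2310 of 2382 IgG, came from 1 region, described below. In the 21 regions the median log2 ratio over IgG was 0.22 in high and 0.14 in low glucose. In the other 171 regions from 90 to 120 Mb the medians were 0.41 and 0.57. Above the stretch, the next region lay 1.50 Mb away near ANKRD7, with 43.9 HNF4A and 11.8 IgG per kb in high glucose and 31.3 HNF4A and 3.98 IgG in low glucose. It was followed by TSPAN12, a tetraspanin gene, with 38.0 HNF4A and 8.85 IgG per kb in high glucose. The raised IgG level was therefore seen on the lower side of the stretch and not in these 2 regions on its upper side.

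Among the genes of this flank, MDFIC, an inhibitor of myogenic transcription factors, had 5 regions. The one from 114529243 to 114530676 held 429 HNF4A and 131 IgG reads in high glucose and 276 HNF4A and 157 IgG reads in low glucose. Its log2 ratio in high glucose, 1.57, had the lowest p of the chromosome for that comparison in the authors' deposited table, at 0.00399 unadjusted. Another, from 114521701 to 114523326, held 147 HNF4A and 189 IgG reads in high glucose, a log2 ratio of -0.51 (-0.83 to -0.19). These 2 regions lay under 10 kb apart and fell on opposite sides of IgG. LINC01393, a long noncoding RNA gene, had 8 regions, of which 7 lay above IgG in high glucose and 2 in low glucose. Its IgG reads summed to 1649 in high and 2078 in low glucose, while its HNF4A reads summed to 2363 and 2039.

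TFEC, a transcription factor gene of the MITF family, had 6 regions, 2 of them above IgG in high glucose and 4 in low glucose. Its region from 115635425 to 115637443 held 142 HNF4A and 197 IgG reads in high glucose and 113 HNF4A and 167 IgG reads in low glucose. The log2 ratios were -0.62 (-0.94 to -0.30) and -0.59 (-0.95 to -0.24), below IgG in both pairs of libraries. In all 6 TFEC regions the ratio was lower in high than in low glucose, by 0.01 to 0.44 on the log2 scale. The promoter of TFEC printed above holds the letters AAAGTCCA, and no TFEC region reached a log2 ratio of 1. No TFEC region was placed on that promoter window.

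The deepest region of the chromosome lay from 61968658 to 61971431, nearest to ZNF733P, a zinc finger pseudogene beside the centromere. It held 2137 HNF4A and 2310 IgG reads in high glucose and 2024 HNF4A and 2234 IgG reads in low glucose, more IgG than HNF4A in both pairs. ZNF733P had 9 regions between 61079563 and 61983097, of which the other 8 were 113 to 450 bp long. At high glucose 6 of the 9 lay above IgG, and in low glucose 2 did. Whether such reads also match other copies of the same sequence was not tested.

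Ratios were ranked by closest gene among regions whose reads, averaged over the 2 libraries compared and not divided by length, reached the median of all regions. Within this limit on reads, the highest ratio over IgG in high glucose lay near URGCP-MRPS24, a read-through of a cell growth regulator gene and a mitochondrial ribosomal protein gene. The region, from 43943890 to 43945414, held 119 HNF4A and 15 IgG reads in high glucose and 64 HNF4A and 28 IgG reads in low glucose. Its log2 ratio was 2.84 (2.06 to 3.72) in high and 1.17 (0.50 to 1.86) in low glucose. EPDR1, an ependymin-related gene, followed with 100 HNF4A and 13 IgG reads in high glucose, from 37982314 to 37983384, a log2 ratio of 2.80 (1.96 to 3.76). The same region held, in low glucose, 48 HNF4A and 16 IgG reads, 1.56 (0.72 to 2.47). A second EPDR1 region stood at 0.04 (-0.58 to 0.67) in high glucose. The promoters of both genes printed above hold the half-site letters, as do 12.1% of all promoters. No region was placed on these promoter windows, so the letters were not tied to either ratio.

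Without the limit, 6 regions with 1 to 8 IgG reads in high glucose had higher ratios. They lay near GATS, LINC01006, KIAA0895, LOC101927668, MRPL32 and DFNA5, at 4.94 down to 2.91, and the widest interval was that of GATS, at 34 HNF4A reads and 1 IgG read (2.37 to 10.3).

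Within the limit, next came AHR at 2.77 (1.93 to 3.73), ACHE, the acetylcholinesterase gene, at 2.26 (1.66 to 2.91), and PIK3CG, a phosphoinositide kinase subunit gene, at 2.24 (1.62 to 2.92). ACTB, the beta actin gene, held 103 HNF4A and 20 IgG reads in high glucose, a log2 ratio of 2.22 (1.52 to 2.99). MIR4651, LINC00525, LOC101927243 and LMTK2 completed the 10 highest, at 2.23 down to 2.14. Of these 10 regions 3 lay between 90 and 120 Mb. Of the 10 lowest, 9 did. In the low glucose rankings below, 1 of the 10 highest and 6 of the 10 lowest did. The interval holds 39.8% of the regions on the chromosome. The limit takes reads not divided by length, and the interval's regions were longer (median 1680.5 against 1075 bp).

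The lowest ratio in high glucose within the limit on reads lay near VGF, a neuropeptide precursor gene, from 100808330 to 100809315. It held 91 HNF4A and 127 IgG reads in high glucose and 101 HNF4A and 75 IgG reads in low glucose, and its log2 ratio in high glucose was -0.63 (-1.03 to -0.23). TFEC was second. TAF6, a subunit of the TFIID complex, held 110 HNF4A and 148 IgG reads in high glucose, a log2 ratio of -0.57 (-0.94 to -0.21), and 106 HNF4A and 89 IgG reads in low glucose, 0.23 (-0.19 to 0.65). EIF3B, a translation initiation factor gene and the one of the 10 outside 90 to 120 Mb, stood at -0.54 (-1.03 to -0.05). FOXP2, ALKBH4, MDFIC, LINC01393, MUC12 and CASD1 followed, at -0.53 to -0.43.

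At low glucose the highest ratio within the limit on reads lay near INTS1, a subunit of the Integrator complex, from 1554947 to 1555684. It held 49 HNF4A and 4 IgG reads in low glucose, a log2 ratio of 3.59 (2.14 to 5.52), and 38 HNF4A and 15 IgG reads in high glucose, 1.19. SHH, the sonic hedgehog gene, held 52 HNF4A and 6 IgG reads in low glucose, 3.09 (1.87 to 4.60), and 47 HNF4A and 12 IgG reads in high glucose, 1.82 (0.89 to 2.87). SUN1, a nuclear envelope gene, held 95 HNF4A and 14 IgG reads in low glucose, 2.74 (1.92 to 3.66). Without the limit, LINC00244 at 34 HNF4A and 2 IgG reads in low glucose, 4.06 (2.10 to 7.16), and GGCT at 14 HNF4A reads and 1 IgG read, 3.78 (1.06 to 9.18), stood higher. In INTS1, SHH and SUN1 the IgG reads were few and were fewer in low than in high glucose. CALD1, ABCB4, MLXIPL, BAZ1B, VPS37D, ZP3 and MUC3A followed, at 2.69 down to 1.90. ABCB4 encodes a phospholipid transporter of bile canaliculi, and MLXIPL a carbohydrate-responsive transcription factor. MLXIPL held 98 HNF4A and 21 IgG reads in high glucose and 52 HNF4A and 11 IgG reads in low glucose. Its log2 ratios of 2.08 (1.39 to 2.83) and 2.21 (1.26 to 3.30) each lay within the other's interval.

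The lowest ratio in low glucose within the limit lay near NCAPG2, a condensin subunit gene, with 21 HNF4A and 33 IgG reads, -0.68 (-1.54 to 0.15). TFEC, TBL2, ZNF733P, LINC01393, MYL10, PPP1R3A, TMED4, MUC3A and MDFIC followed, at -0.59 to -0.21. Only for TFEC and LINC01393 among these 10 did the interval lie below 0. MUC3A, a membrane mucin gene, was among both the 10 highest and the 10 lowest through 2 regions. One, from 100546466 to 100547441, held 57 HNF4A and 15 IgG reads in low glucose, and the other, from 100550734 to 100551161, held 35 HNF4A and 40 IgG reads.

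The ratios at the 2 glucose levels come from separate libraries. Over the 482 regions their Pearson and Spearman correlations were 0.465 and 0.544, against 0.561 and 0.606 over all regions. Regions are not independent replicates, and these values share region length and local read depth. At both glucose levels 116 regions had 2-fold more HNF4A than IgG, 24.1% against 31.4% of all regions. A further 56 (11.6%, against 10.3% of all regions) did so in high glucose alone and 60 (12.4%, against 15.5%) in low glucose alone. In the interval from 90 to 120 Mb 22 of 192 regions (11.5%) were 2-fold above at both levels, and in the rest 94 of 290 (32.4%). Below IgG at both levels lay 20 regions (4.15%, against 4.06%), 12 of them from 90 to 120 Mb and 3 nearest to ZNF733P.

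**Figure D4:**
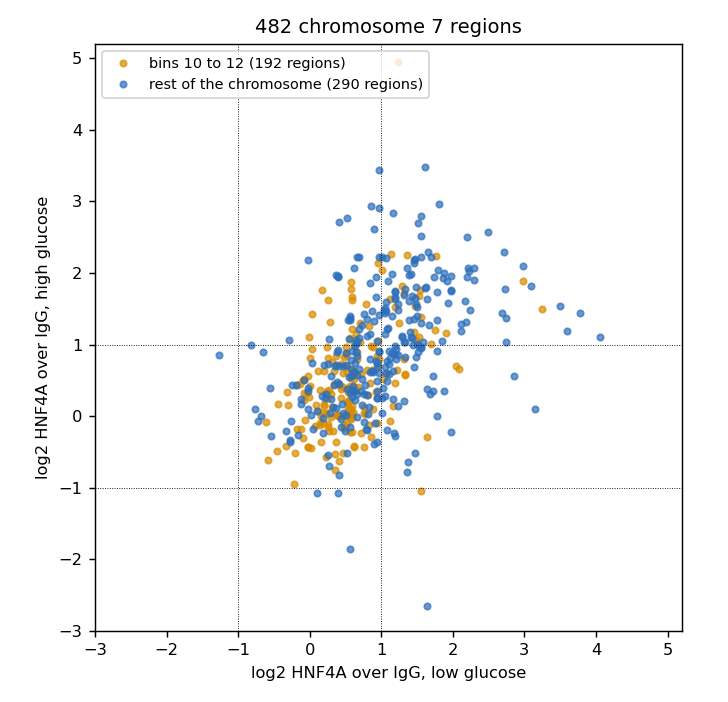
Log2 HNF4A over IgG in high glucose (vertical axis) against low glucose (horizontal axis) for the 482 regions, 192 from bins 10 to 12 (orange) and 290 from the rest of chromosome 7 (blue); dotted lines mark 2-fold. The upper right corner past both lines holds 116 regions, 22 of them orange.

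Between glucose levels, HNF4A and IgG both gave more scaled reads in high glucose. The total depth of the libraries is not known, so this direction rests on the scaling. For HNF4A in high over low glucose, 406 regions (84.2%, against 81.8% of all regions) were higher and 76 lower. The median log2 ratio was 0.35 against 0.36 over all regions. For IgG 366 (75.9%, against 77.9%) were higher and 116 lower, with a median of 0.50 against 0.51. HNF4A was 2-fold higher in high glucose in 31 regions (6.43%), against a background of 6.78%, and 2-fold lower in 6 (1.24%), against 0.713%. With plain reads 58 regions were 2-fold higher, and with ratios centred on the median of all regions 9 were, where the median was -0.0052. IgG was 2-fold higher in 66 (13.7%), against 19.4%, and 2-fold lower in 14 (2.90%), against 3.38%. Across regions, the change of HNF4A between glucose levels and that of IgG had a Pearson correlation of 0.0118. The HNF4A over IgG ratio was higher in high than in low glucose for 212 regions (44.0%, against 41.7% of all regions) and lower for 270. The median difference was -0.09 against -0.15 over all regions.

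In the bin from 110 to 120 Mb the rise in high glucose was smaller for HNF4A and absent by the median for IgG. Its IgG reads had a median log2 ratio of -0.08 for high over low glucose, with 15 of 32 regions higher. Its HNF4A reads had a median of 0.10, with 20 of 32 regions higher. In the 21 regions just below the MET stretch these medians were -0.15 for IgG and -0.04 for HNF4A, where 6 of 21 and 10 of 21 were higher in high glucose.

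AHR, which encodes the aryl hydrocarbon receptor, a sensor of xenobiotics, had the highest HNF4A ratio of high over low glucose, with or without the limit on reads, through 1 of its 3 regions. That region, from 17138801 to 17139593, held 98 HNF4A reads in high and 22 in low glucose, while IgG held 13 and 15. The region from 17251599 to 17252357 held 22 HNF4A and 5 IgG reads in high glucose, 1.99 over IgG, and 19 HNF4A and 7 IgG reads in low glucose, 1.41. The region from 17337930 to 17339332 held 52 HNF4A and 37 IgG reads in high glucose, 0.34, and 47 HNF4A and 14 IgG reads in low glucose, 1.72. For HNF4A, high over low glucose came to 2.02 (1.34 to 2.76), 0.08 and 0.01 in these 3 regions. The excess of HNF4A in high over low glucose was thus that of 1 region. The 3 regions span 200.5 kb, and their distance to AHR was not measured.

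POR, the gene of the reductase that passes electrons to cytochrome P450 enzymes, held 72 HNF4A and 21 IgG reads in high glucose and 21 HNF4A and 9 IgG reads in low glucose. HNF4A stood at 1.64 (0.92 to 2.42) for high over low glucose, and IgG at 1.21 (0.02 to 2.52). MYL10, MRPL32, DFNA5, LOC101927243, LHFPL3-AS2, TNS3, CUX1 and ZFAND2A followed, at 1.37 down to 1.14. MRPL32, a mitochondrial ribosomal protein gene, held 68 HNF4A reads in high and 24 in low glucose, and 8 IgG reads in high and 13 in low glucose, so its IgG did not rise with it. In the other direction SUN1 held 63 HNF4A reads in high and 95 in low glucose, -0.73 (-1.21 to -0.25). For a TFEC region the ratio was -0.55 (-1.10 to -0.01). The intervals of FOXP2, INTS1, TRIM56, BET1, VGF, SHH, ARPC1B and ASNS, which completed the 10 lowest at -0.55 to -0.20, included 0. The 6 regions 2-fold lower in high glucose, near SCRN1, ELMO1-AS1, SEC61G, ZNF733P, FAM185A and HTR5A, were 222 to 604 bp long and held 3 to 17 HNF4A reads in high glucose.

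Genes with several regions differed in whether their regions moved alike. IGFBP3, which binds insulin-like growth factors in blood, was the closest gene to 4 regions spread over 560.8 kb, at distances not measured here. All 4 regions stood at 1.78 to 2.08 over IgG in high glucose. Their HNF4A reads in high glucose were 98, 38, 82 and 37, against 21, 10, 18 and 8 IgG reads. At low glucose they were 47, 27, 53 and 34, against 30, 4, 15 and 13 IgG reads, and the log2 ratios ran from 0.62 to 2.73. At high glucose IGFBP3 thus had the narrowest range of the genes with 4 or more regions. KIAA0895 had 4 regions, at 1.07 to 3.44 in high and 0.65 to 1.50 in low glucose. TNS3, which encodes the focal adhesion protein tensin 3, had 5 regions, at 0.71 to 2.22 and 0.36 to 1.56.

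PRKAG2, an AMP-activated kinase subunit gene, had 7 regions with medians of 0.68 in high and 1.10 in low glucose, and 1 of them lay below IgG in high glucose, at -0.19. CUX1, a homeobox factor gene, had 7 regions, all above IgG at both levels, at 0.04 to 1.62 and 0.23 to 0.96. BAIAP2L1, an actin regulator gene, had 4, at 0.33 to 1.18 and 0.52 to 1.52. NAMPT, the gene of a NAD synthesis enzyme, had 4, at 0.27 to 1.26 in high glucose and -0.0045 to 0.82 in low glucose. The IgG level summed over regions was 10.8 per kb for IGFBP3, 14.2 for KIAA0895 and 19.98 for TNS3 in high glucose, and 26.9 for PRKAG2. It was 36.6 for CUX1, 38.9 for BAIAP2L1 and 32.9 for NAMPT, which lie between 90 and 120 Mb. The corresponding HNF4A levels were 43.5, 37.9, 44.9 and 49.8 per kb for the first 4 genes, and 55.9, 65.1 and 47.3 for the others.

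**Figure D5:**
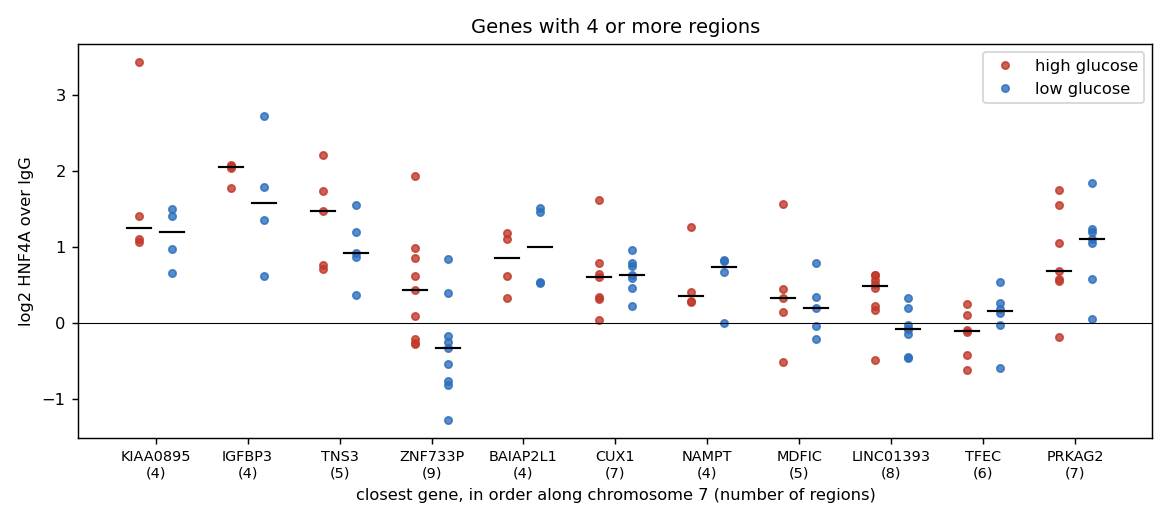
Log2 HNF4A over IgG of each region (points) and the median (bars) for the 11 closest genes with 4 or more regions, in order along chromosome 7, in high glucose (red, left of each pair) and low glucose (blue). The 4 IGFBP3 regions lie at 1.78 to 2.08 in high glucose, and 7 of 8 LINC01393 regions lie above 0 in high but 2 of 8 in low glucose.

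Runs of at least 4 regions with at most 50 kb between neighbours numbered 17 and held 110 regions (22.8%), 77 of them in 11 runs from 90 to 120 Mb. The largest had 19 regions from SMURF1, a ubiquitin ligase gene, to ZSCAN25, from 98695980 to 99215189. It held 2279 HNF4A and 1606 IgG reads in high glucose, a log2 ratio of 0.36 (0.27 to 0.45), and 1691 HNF4A and 1040 IgG reads in low glucose, 0.68 (0.56 to 0.79). All 19 lay above IgG in low glucose and 12 in high glucose. A run of 14 regions from MUC12 to FIS1, over 287.8 kb, stood at 0.35 (0.24 to 0.45) and 0.54 (0.41 to 0.66). Outside that interval, a run of 7 regions over 147.6 kb from BAZ1B to VPS37D, which includes MLXIPL, stood at 1.10 (0.89 to 1.31) in high and 1.17 (0.91 to 1.43) in low glucose. Its IgG level was 25.4 per kb in high glucose, against 44.5 in the run from SMURF1, while HNF4A had 54.4 and 57.1. A run of 6 near RHBDD2, POR, MIR4651 and TMEM120A stood at 0.997 (0.77 to 1.23) and 0.93 (0.65 to 1.22).

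Gene lists by function were counted with 1 region per gene, the one with the most HNF4A reads. Since that choice uses the reads on top of the ratio, the lists are read beside the 4324 closest genes of all regions taken the same way, with medians of 0.77 in high and 0.97 in low glucose, and 40.5% and 47.6% of genes 2-fold above IgG. The 360 closest genes on the chromosome had medians of 0.62 and 0.76. Counts above IgG in each list stand beside 84.2% of all regions above IgG in high and 91.5% in low glucose. These 2 shares are over regions without the pick of 1 per gene, so they do not match the lists in that respect. Of 48 liver metabolism and detoxification genes of the chromosome, 24 had a region. At high glucose 20 lay above IgG and 4 below, with a median log2 ratio of 0.74, and in low glucose all 24 lay above, with a median of 0.80. Of these, 9 (37.5%) were 2-fold above IgG in high and 8 (33.3%) in low glucose, no more than the shares over all genes. PSPH, a serine synthesis gene, held 54 HNF4A and 12 IgG reads in high glucose, 2.02 (1.10 to 3.06), and 38 HNF4A and 8 IgG reads in low glucose, 2.22 (1.10 to 3.53). ABCB4 stood at 1.48 (0.78 to 2.23) and 2.24 (1.24 to 3.39). The 4 below IgG in high glucose were PON3, ASNS, CYP3A5 and DLD, at -0.43 to -0.11, all from 90 to 120 Mb, and each interval included 0. In CYP3A5, a drug-metabolizing cytochrome P450 gene, the region held 19 HNF4A and 21 IgG reads in high glucose and 24 HNF4A and 13 IgG reads in low glucose.

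Of 26 growth factor and morphogen signalling genes, 9 had a region, all above IgG at both levels, with medians of 1.001 and 1.48. The genes 2-fold above IgG were 5 (55.6%) in high and 8 (88.9%) in low glucose. The shares over all closest genes were 40.5% and 47.6%, and the difference was not tested. EGFR, the epidermal growth factor receptor gene, held 38 HNF4A and 11 IgG reads in high glucose, 1.64 (0.64 to 2.76), and 19 HNF4A and 6 IgG reads in low glucose, 1.64 (0.26 to 3.25). GRB10, an adaptor of the insulin receptor, stood at 1.56 (0.96 to 2.20) and 1.48 (0.70 to 2.32). Of 37 homeobox and developmental transcription factor genes, 8 had a region, 6 above IgG in high and 7 in low glucose, with medians of 1.06 and 0.89. Their 2-fold shares were 50% (4 genes) in high and 25% (2 genes) in low glucose. HOXA13, a factor of limb and gut patterning, stood at 2.22 (0.94 to 3.77) and 0.67 (-0.40 to 1.79), and CREB3L2, a membrane-bound transcription factor, at 1.76 (1.03 to 2.55) and 1.97 (0.89 to 3.21).

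Of 27 chromatin and transcription genes, 12 had a region, with medians of 0.66 and 0.63, and 11 lay above IgG in high and 12 in low glucose. Their 2-fold shares were 41.7% (5 genes) in high and 33.3% (4 genes) in low glucose. BAZ1B, a subunit of a chromatin remodeller, held 166 HNF4A and 60 IgG reads in high glucose, 1.32 (0.89 to 1.77), and 116 HNF4A and 25 IgG reads in low glucose, 2.19 (1.55 to 2.87). ATXN7L1, whose region lies within 90 to 120 Mb, held 330 HNF4A and 129 IgG reads in high glucose, 1.21 (0.91 to 1.51), and 192 HNF4A and 56 IgG reads in low glucose, 1.75 (1.32 to 2.21). Of 17 cell cycle and DNA maintenance genes, 8 had a region, with medians of 0.35 and 0.50, and 7 of 8 lay above IgG at each level. At each level 1 gene (12.5%) was 2-fold above IgG. MAD1L1, a spindle checkpoint gene, stood highest in high glucose, at 1.43 (0.92 to 1.96). MCM7, a helicase subunit gene of DNA replication, stood at 0.06 (-0.23 to 0.35) and 0.55 (0.20 to 0.90).

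Of 23 cytoskeleton, matrix and adhesion genes, 10 had a region, 8 above IgG in high and 9 in low glucose, with medians of 1.19 and 0.93. Their 2-fold shares were 50% (5 genes) in high and 40% (4 genes) in low glucose. CALD1, a gene of an actin-binding protein, stood at 1.44 (0.46 to 2.52) and 2.69 (1.53 to 4.08), and LAMB1, a laminin subunit gene, at 1.88 (1.07 to 2.77) and 0.58 (-0.22 to 1.41). Of 20 ubiquitin and protein degradation genes, 6 had a region, all above IgG at both levels, with medians of 0.59 and 0.82. Their 2-fold shares were 33.3% (2 genes) in high and 50% (3 genes) in low glucose. With the regions of each gene averaged, the medians of these 6 were 0.69 and 0.41. UBE2H, a ubiquitin-conjugating enzyme gene, held 57 HNF4A and 9 IgG reads in high glucose, 2.52 (1.49 to 3.72), and 36 HNF4A and 12 IgG reads in low glucose, 1.56 (0.58 to 2.64). Of 26 ion channel, transporter and synapse genes, 2 had a region, both above IgG at both levels. In high glucose 2 (100%) were 2-fold above IgG, and in low glucose 1 (50%) was. One was AQP1, the gene of a water channel, with 123 HNF4A and 32 IgG reads in high glucose, 1.80 (1.23 to 2.41), and 109 HNF4A and 35 IgG reads in low glucose, 1.61 (1.05 to 2.21).

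In the authors' deposited tables no region passed a false discovery rate (FDR) of 0.05 in any of the 3 comparisons, 0 of 482 against 0% of all 5326. The lowest FDR on the chromosome in the authors' deposited tables was 0.865 for HNF4A over IgG in high glucose, 0.820 in low glucose and 0.914 between HNF4A libraries. The authors' deposited table for high glucose had 23 regions above IgG with an unadjusted p under 0.05, 4.77% against a background of 4.96%, and 0 below, against 0.0188%. For low glucose the authors' deposited table had 10 above, 2.07% against 3.04%, and 0 below, against 0%. Between HNF4A libraries the authors' deposited table had 26 higher in high glucose, 5.39% against 4.39%, and 3 lower, 0.622% against 0.225%. The regions under 0.05 in both tables over IgG were those of AQP1 and ATXN7L1 named above. In the authors' deposited tables AQP1 had unadjusted p-values of 0.0447 in high and 0.0476 in low glucose, and ATXN7L1 had 0.0361 and 0.00547. These shares lie near the background, and the authors' p-values come from single libraries per side.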

How the data were processed

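ChIP-seq libraries of HCCLM3 cells were made with HNF4A or IgG in high and low glucose, 1 per group. The submitters' processing notes name build hg19 and the tools HOMER, DiffBind, MACS, Bowtie 1.1.2 and bcl2fastq. Per the labels' protocols, libraries had 15 cycles of PCR.

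The authors deposited 3 tables of comparisons with log2 levels, a log2 fold, a p-value and an FDR per region and the closest gene, per the file headers. Joined on position, they share 5326 regions. On the linear scale 100% of levels were whole multiples, within 0.01, of a step per library, and dividing by it gave the reads. Relative library sizes were 1.10 (HNF4A) and 0.993 (IgG) in high glucose, and 1 and 0.982 in low glucose. Since 1 read was the lowest value, some of these may be 0 (IgG, 1 region in high and 2 in low glucose). The sources used here give no total depth.

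Ratios of scaled reads carry exact 95% Clopper-Pearson intervals, which cover counting error between 2 libraries only, since PCR copies are not independent molecules. With 1 library per group there is no test of conditions. Recovery of reads and ratios was tested on simulated data. The members and gene lists were chosen with earlier results of these data known. Named genes are the 10 highest and 10 lowest ratios per comparison among regions with mean reads at or above the median of all regions, the deepest regions, genes with 4 or more regions, runs of neighbouring regions, up to 4 members of each list and regions with p under 0.05 in both tables over IgG. AHR's other regions, the genes with AAAGTCCA, the miRNA genes, the 6 short regions lower in high glucose, the regions with higher ratios on fewer reads, and the regions above the MET stretch were named after their values were seen. Promoters and miRNAs are from RefSeq (GRCh38.p14). A search for HNF4A letters within the regions was not run, since no hg19 sequence was used here. Analysis used Python 3.11.15, numpy 2.4.6, pandas 2.3.3, scipy 1.17.1 and matplotlib 3.10.9.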

Additional observations from a re-analysis of the deposited data

Results flagged for a closer look

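In 3 regions HNF4A lay below IgG in high glucose and above it in low glucose, with both counting intervals on 1 side of 0. The share of all 5326 regions that meet this criterion is not given here. By sign alone, 67 of the 482 regions had this pattern, against 628 of all 5326. The difference between the glucose levels was not tested. The SCRN1 region, from 30027249 to 30027579, held 3 HNF4A and 17 IgG reads in high glucose and 19 HNF4A and 6 IgG reads in low glucose. Its log2 ratios were -2.65 (-5.06 to -0.86) and 1.64 (0.26 to 3.25), a difference of -4.29. The WBSCR16 region held 25 HNF4A and 39 IgG reads in high glucose and 39 HNF4A and 15 IgG reads in low glucose, a difference of -2.14. The CASD1 region held 119 HNF4A and 145 IgG reads in high glucose and 111 HNF4A and 71 IgG reads in low glucose, a difference of -1.05. No region of the chromosome showed the opposite pattern by the same criterion. By sign alone, 28 of the 482 regions did, against 237 of all 5326.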

How the results depend on the processing

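No paired analysis was possible because each group has 1 library, and no library could be left out for the same reason. Of 104 alternative values, 71 stayed within their limit, 23 moved and 10 reversed. The limit was the interval, 1.5 times for counts, or a narrower limit for the ranges of bins. Centring each ratio on the median of all regions subtracts values given above, so the signs of the centred medians were already set. It gave 5 of the 10 reversed values. The chromosome's medians became -0.13 (HNF4A over IgG, high glucose), -0.21 (low glucose), -0.0052 (HNF4A, high over low) and -0.011 (IgG, high over low). Centring turned the median difference of ratios to 0.053, and left 63, 33, 9 and 14 regions 2-fold higher in those 4 comparisons. Plain reads without scaling gave medians of 0.80 (high glucose) and 0.49 (HNF4A, high over low) and 58 regions 2-fold higher in the last. Without the regions at 90 to 120 Mb, chosen after the data were seen, the medians over IgG were 0.90 and 0.97. Summed reads per kb over those of other chromosomes became 1.10, 1.19, 1.09 and 1.24 (HNF4A and IgG in high, HNF4A and IgG in low glucose) as medians of regions, and 1.45, 1.61, 1.53 and 1.83 with the MET stretch included. Without ZNF733P and the regions within 2 Mb of that stretch, also chosen after the data were seen, they were 0.919, 0.896, 0.878 and 0.799. Bins of 5 Mb gave highest over lowest medians of 1.84 (HNF4A) and 5.50 (IgG) in high glucose and 7.97 (IgG) in low glucose. Gaps of 20 kb gave 5 runs and gaps of 100 kb gave 29. Averaging the regions of each gene moved the 2 ion channel genes to 1.58 in high glucose and turned their IgG median of high over low glucose to 0.094. It brought the 6 ubiquitin genes to 0.41 over IgG in low glucose. Unless stated, the cause was not tested. Read numbers limit the short regions most, and the search for letters within regions was not run.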
